A study of Homo sapiens with 8 samples.

Results

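The OCT2 peak list holds every region that the study's authors called as bound by OCT2 over input in 697 cells. These cells are a long-established line grown from a human leukaemia of precursor B cells. All rows of the deposited list were taken, 8129 of the 159806 peaks in the 7 lists of the study. Chromatin immunoprecipitation followed by sequencing (ChIP-seq) pulls down DNA with an antibody and counts the sequenced fragments, called tags, at each place in the genome. The study made 8 libraries from 697 cells grown in medium with serum and no recorded treatment: 1 each for OCT2, OCAB, MTA2, Mi2, HDAC2, IKAROS and AIOLOS, and 1 input library of DNA taken without an antibody. The OCT2 antibody came from Santa Cruz, as did the OCAB antibody, and the other 5 came from Abcam. With 1 library per antibody and 1 cell line, there was no replicate check. No test between conditions was possible, and every interval given here is a 95% interval. Intervals of shares, differences and medians treat peaks as independent draws, which neighbouring peaks may not be. Those of tags cover counting error, and none covers variation between libraries.

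OCT2, encoded by POU2F2, is a transcription factor of lymphocytes whose POU domain binds the octamer, a short DNA sequence found in promoters of immunoglobulin and histone genes. OCAB is a coactivator of B cells that is brought to the octamer through OCT1 or OCT2. MTA2, Mi2 and HDAC2 belong to NuRD, which moves nucleosomes and removes acetyl groups from histones, and IKAROS and AIOLOS are related zinc-finger factors that can recruit it. The title of the study links MTA2 and OCAB, and OCT2 is the octamer-binding protein among those mapped.

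The list gives positions on build hg19 and no sequence, so the octamer is shown here in reference promoters of histone H2B genes. H2B genes were chosen, after the values below were seen, because a stretch on the short arm of chromosome 6, which is known to hold the large histone gene cluster, had some of the densest OCT2 binding. Each line gives the RefSeq sequence from 80 to 21 bases before the gene's start, 5′ to 3′ on the gene's own strand, with the octamer ATTTGCAT in capitals. On GRCh38.p14 the windows are chr6:26216709-26216768 on the minus strand for H2BC8, chr6:26251534-26251593 on the plus strand for H2BC9, chr6:26272851-26272910 on the plus strand for H2BC10 and chr6:27132816-27132875 on the minus strand for H2BC11.
H2BC8: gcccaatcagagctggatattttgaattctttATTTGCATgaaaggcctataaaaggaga
H2BC9: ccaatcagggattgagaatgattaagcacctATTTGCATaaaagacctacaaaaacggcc
H2BC10: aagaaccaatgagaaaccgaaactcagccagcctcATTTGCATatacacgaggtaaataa
H2BC11: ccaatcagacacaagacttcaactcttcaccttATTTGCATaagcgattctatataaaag
In these 4 promoters the octamer began 48, 49, 45 and 47 bases before the start. The search took ATTTGCAT on either strand (ATGCAAAT on the other) in the 250 bases before the start, and no other motif was searched. Of 27326 RefSeq genes with such a window, 555 (2.03%) held a match. On chromosome 6, 12 of 15 H2B genes (80%) and 9 of 11 H2A genes (81.8%) held one, against 1 of 8 H3 genes, 0 of 10 H4 genes and 0 of 6 H1 genes. On chromosome 1, 2 of 3 H2B genes (66.7%) and 2 of 5 H2A genes (40%) held one, and 0 of 3 H3 genes and 0 of 2 H4 genes. Many H2A and H2B genes stand as pairs that share a promoter, so their windows are not separate sequences in each case. The promoters and the peaks are on different builds, so no peak was placed on a promoter, and a match describes letters only.

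Peak height is the deposited normalised tag count, the number of OCT2 tags in a peak per 10 M tags of the library. The library held 18.33 M tags, as peak tags and heights imply, so 1 tag was worth a height of 0.5455. Every peak was listed with a width of 274 bp. Heights ran from 6.0 to 1212.2 with a median of 14.2, and the middle 50% of peaks lay between 10.4 and 20.7. The 5th and 95th percentiles were 7.64 and 39.8. Most OCT2 peaks were therefore low: 5985 of 8129 (73.6%, Wilson 72.7 to 74.6) were under a height of 20, 228 (2.80%) reached 50 and 39 (0.480%) reached 100.

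**Figure D1:**
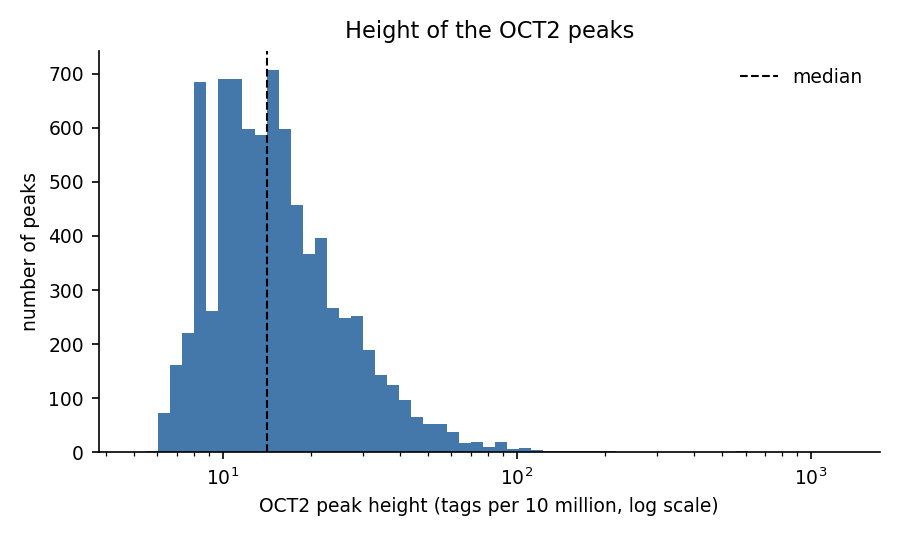
Number of OCT2 peaks (vertical axis) by peak height in tags per 10 M on a log scale (horizontal axis), with the median of 14.2 dashed. Uneven neighbouring bars at low heights reflect whole tags, and the distribution has a long tail to the right.

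In tags, the lowest peak held 11, the median peak 26 and the 95th percentile 73. An exact Poisson interval around 26 tags runs from 17.0 to 38.1 tags, or from 9.26 to 20.8 in height, and 62.3% of all peaks have heights inside it. For a peak of 11 tags the interval is 3.0 to 10.7 in height, and for one of 73 tags it is 31.2 to 50.1. The 3 lowest peaks, just inside the limit of the list, all had a height of 6.0: chr1:67638404-67638678, chr11:62538174-62538448 and chr5:42656735-42657009. The first and second had 11 tags against 0 input tags and a listed fold over input of 25.5, in which 0.5 tags stand in for none, and the third had 12 tags against 1 input tag and a fold of 13.9.

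All OCT2 peaks together held 274486 tags, 1.497% of the library. The listed control, scaled to the same depth, summed to 26023.2 tags in the same places, 0.1419% of the library. The peaks as a whole thus stood 10.55 times above it. This sum includes a listed 0.4 for each peak with no input tag. The highest decile of peaks held 28.7% of the tags in peaks, the lowest decile 4.24%, and the highest 81 peaks alone 7.85%.

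Input tags say how much DNA the same place gives without the antibody. The scaled control of each peak, taken as its tags over its listed fold and divided by a step of 0.8627, gave whole numbers of input tags in all 8129 peaks within a tolerance of 0.1 tags, with 0.5 tags standing in for none. That step implies a control of 21.25 M tags. Whether this control was the deposited input library is not stated in the sources used here. The median peak had 3 input tags, or 2.6 after scaling. Of all peaks, 432 (5.31%, Wilson 4.85 to 5.82) had no input tag, 1171 (14.4%) had 1, 4139 (50.9%) had 2 to 4, and 193 (2.37%) had 10 or more. Fold over input is the ratio of OCT2 tags to scaled input tags, as deposited; with a median of 3 input tags its denominator is a small number. Its median was 9.85 (exact binomial interval 9.85 to 10.1), its lowest value 4.0 and its highest 396.85. A fold of at least 8 was reached by 5442 peaks (66.9%), of at least 20 by 1490 (18.3%) and of at least 100 by 58 (0.713%), while 320 (3.94%) lay under 5. The largest p-value over input that the authors listed was 8.92e-10.

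**Figure D2:**
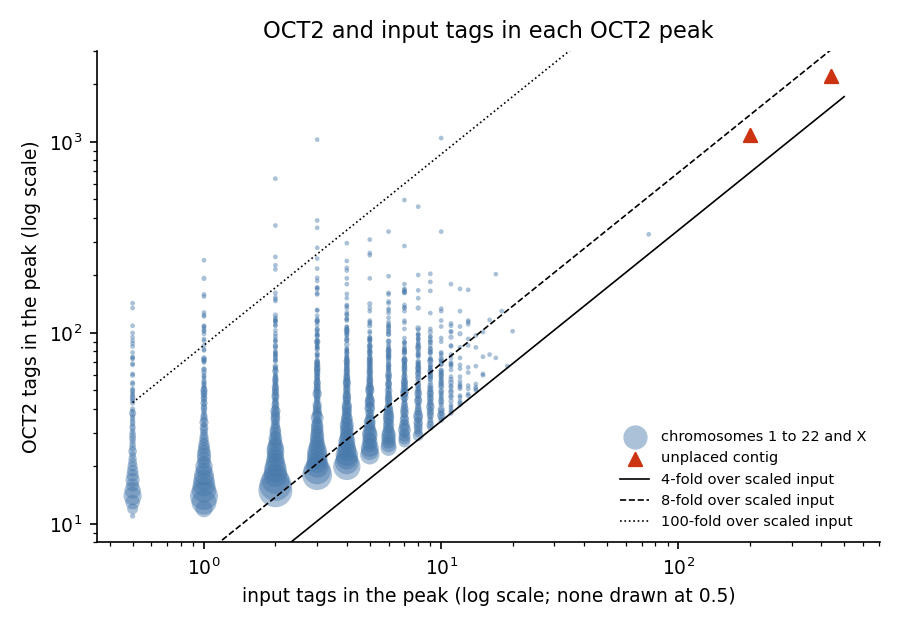
OCT2 tags (vertical axis, log scale) against input tags (horizontal axis, log scale, none drawn at 0.5) for every OCT2 peak, with a larger point where more peaks share the same values. Lines mark 4-, 8- and 100-fold over the scaled input, no peak lies below the 4-fold line, and the 2 triangles are the peaks on an unplaced contig.

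The fold over the surroundings compares a peak with the region around it in the OCT2 library itself. Its median was 8.27 (interval 8.16 to 8.37), its lowest 4.0 and its highest 229.86, and 779 peaks (9.58%) were under 5. The column the authors list as a clonal fold, whose definition is not given in the sources at hand, had a median of 0.95 and ran from 0.53 to 1.76. The library was amplified over 15 PCR cycles without molecular identifiers, so tags are not counts of independent molecules.

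The focus ratio is the share of a peak's tags lying where a single point of binding at its centre would put them, so a value near 1 is a sharp peak. Its median was 0.75 (interval 0.75 to 0.753), with the lowest peak at 0.423 and the highest at 0.989. Only 354 peaks (4.35%) reached 0.9, and 405 (4.98%) were under 0.6. The findPeaks score, the peak caller's own measure, ran from 13 to 523 with a median of 25. Score and height gave nearly the same order, with a Spearman rho of 0.988 across the 8129 peaks. Both are made from the same tags, so across the list the score adds little that is separate from height. Among the highest peaks the orders differed. For example, chr1:180992068-180992342 had a height of 350.2 and a score of 208, and chr21:34144120-34144394 a height of 270.6 and a score of 264.

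To see how peaks differ with height, the list was divided into 10 deciles by height, decile 10 the highest, with tied heights kept together. The deciles hold 586 to 952 peaks, the lowest from 6.0 to 8.18 in height and the highest from 30.6 to 1212.2. Higher OCT2 peaks were sharper. The median focus ratio was 0.729 (0.722 to 0.737) in the lowest decile, 0.735 (0.722 to 0.743) in the fifth, 0.761 (0.754 to 0.766) in the eighth, 0.783 (0.776 to 0.789) in the ninth and 0.814 (0.806 to 0.82) in the highest. From the first to the fifth decile the intervals overlap, and the separation lies in the upper deciles. The share of peaks with a focus ratio of at least 0.9 was between 2.46% and 4.73% in deciles 1 to 9 and 13.8% (114 of 829) in the highest. Across peaks, rho between height and focus ratio was 0.241.

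The fold over the surroundings was also larger in each decile than in the one below it, from a median of 5.89 (5.75 to 6.03) in the lowest to 16.7 (16.1 to 17.5) in the highest. Fold over input had another course. It was 16.2 in the lowest decile, 9.85 in the second, 7.73 in the third, and 17.4 (16.5 to 18.9) in the highest. Across all peaks, rho between height and fold over input was -0.000834, while that between input tags and fold was -0.734. The input itself moved with height: the median scaled control was 0.9 tags in the lowest decile and 4.3 in the highest, and 20.8% (18.1 to 23.7) of peaks in the lowest decile had no input tag against 2.05% (1.28 to 3.26) in the highest. No peak of the lowest decile had a scaled control above 1.7. Since every listed peak was at least 4-fold over input with a p-value of 8.92e-10 or less, a peak of few tags could enter the list only where the input was nearly empty. Height, not fold over input, is used to order the peaks below.

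**Figure D3:**
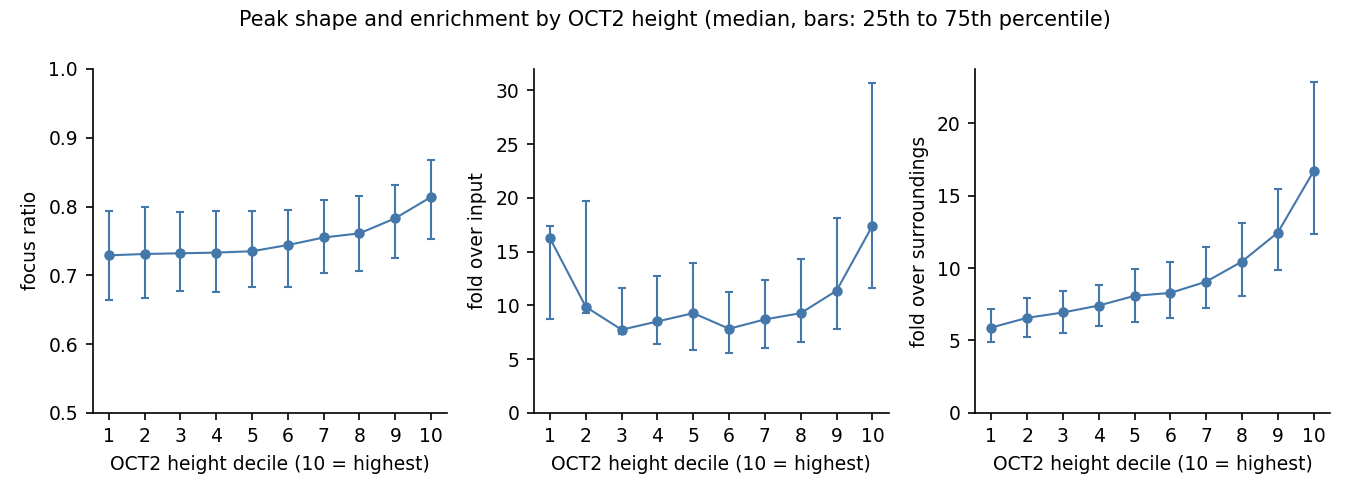
Median focus ratio, fold over input and fold over the surroundings (vertical axes) by decile of OCT2 height (horizontal axes, 10 the highest), with bars from the 25th to the 75th percentile of peaks. Focus ratio and fold over the surroundings are largest in the highest decile, and fold over input is high at both ends.

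Most OCT2 peaks coincided with a peak of another protein. An OCT2 peak was counted as having a partner where a peak of another list shared at least 1 bp with it. OCAB was present at 1831 of 8129 OCT2 peaks (22.5%), MTA2 at 5759 (70.8%), Mi2 at 1837 (22.6%), HDAC2 at 4395 (54.1%), IKAROS at 6218 (76.5%) and AIOLOS at 5667 (69.7%). The lists have very different lengths, from 4440 peaks for OCAB to 53948 for IKAROS, so these shares are not comparable as strengths of association. As shares of the partner lists, an OCT2 peak was present at 41.2% of OCAB peaks, 27.2% of HDAC2 peaks, 20% of MTA2 peaks, 17.8% of Mi2 peaks, 14.9% of AIOLOS peaks and 11.5% of IKAROS peaks. OCAB, the shortest list, was thus the one with the largest share at OCT2 sites.

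The 10 highest OCT2 peaks on chromosomes 1 to 22 and X were mostly sharp, with a focus ratio of at least 0.919 in 9 of them, and had 2 to 10 input tags. None was within 12.5 kb of another OCT2 peak. The highest, chr1:155214479-155214753, had 1047 tags, a height of 570.1, a focus ratio of 0.961 and 10 input tags, for a fold over input of 121.37. Second came chr15:44580550-44580824, with 1027 tags, a height of 560.3, a focus ratio of 0.957 and only 3 input tags, which gave the largest fold over input of the list, 396.85. Next, chr1:180992068-180992342 had a height of 350.2 from 642 tags and the highest focus ratio in the list, 0.989. The following 5 were chr21:34144120-34144394 (270.6), chr6:37665827-37666101 (249.3), chr9:93862307-93862581 (211.7), chr3:138328288-138328562 (199.1) and chr7:150452606-150452880 (193.7), with focus ratios from 0.919 to 0.966.

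The last of the 10 were tied at a height of 184.9 and differed in shape. At chr8:82754633-82754907 the focus ratio was 0.943 and the fold over the surroundings 69.7, and MTA2 was its only partner, at a height of 34.6 in its own list. At chr22:23922592-23922866 the focus ratio was 0.753 and the fold over the surroundings 14.8, and the MTA2 peak was far higher, at 269.7. It also had IKAROS at 329.3, AIOLOS at 300.7, HDAC2 at 93.4 and OCAB at 45.6, partners that the chromosome 8 peak lacked. Equal OCT2 heights thus stood beside MTA2 peaks of very different heights.

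Within the highest decile, the sharpest peaks after chr1:180992068-180992342 were chrX:31961881-31962155 at a focus ratio of 0.977 and chr12:28420944-28421218 at 0.968. The broadest were chr6:26032968-26033242 at 0.535, chr1:11968407-11968681 at 0.54 and chr6:27859903-27860177 at 0.561. Their folds over the surroundings, 5.2, 5.95 and 4.67, were low beside the 101.78 of the peak on chromosome X. The decile has 829 peaks, and 2 of its 3 broadest lie within the chromosome 6 stretch described below.

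Neighbouring OCT2 peaks were mostly far apart. Over 8105 neighbouring pairs on the same chromosome, the median distance between centres was 122993 bp (117596 to 129378), the shortest 455 bp, and 677 pairs (8.35%) were over 1 Mb apart. A smaller set stood close: 154 distances (1.90%) were up to 1 kb, 330 (4.07%) were from 1 to 5 kb and 508 (6.27%) from 5 to 12.5 kb. The distribution of distances has its main body around 100 kb and a low separate hump near 1 kb.

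**Figure D4:**
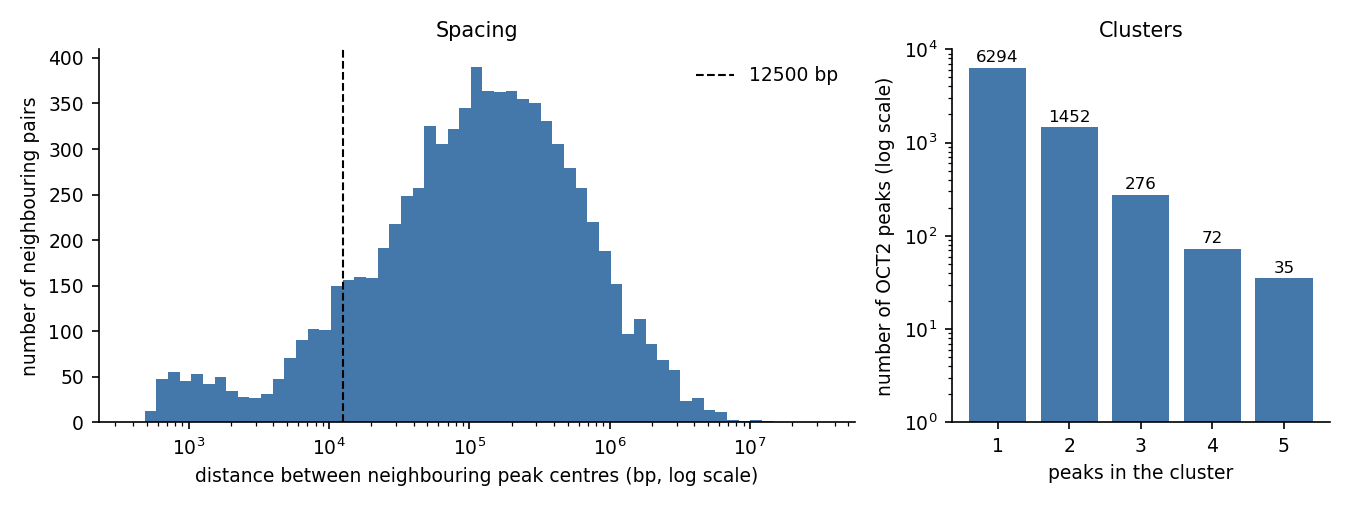
Left, number of neighbouring pairs (vertical axis) by distance between peak centres in bp on a log scale, with 12.5 kb dashed. Right, number of OCT2 peaks on a log scale by the number of peaks in their cluster, from 6294 peaks alone to 35 in clusters of 5.

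Peaks linked by distances of at most 12.5 kb were joined into clusters. By this rule 6294 peaks (77.4%, Wilson 76.5 to 78.3) stood alone and 1835 (22.6%, 21.7 to 23.5) were in 843 clusters: 726 pairs, 92 clusters of 3, 18 of 4 and 7 of 5. The 117 clusters of 3 or more held 383 peaks and spanned 2377 to 43858 bp, with a median of 13627 bp. These counts follow the distance chosen: 5000 bp gave 17 clusters of 3 or more and 11.7% of peaks clustered, and 25000 bp gave 256 clusters and 34.6%. Among peaks at least 8-fold over input, 43 such clusters were counted at 12.5 kb.

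Clustered peaks were higher than those alone. The median height was 13.6 (13.1 to 13.6) for peaks alone, 15.8 (15.3 to 16.4) in pairs and 18.0 (17.5 to 19.1) in clusters of 3 or more. Seen from the other side, 11.2% (9.19 to 13.5) of the lowest decile were clustered, and 34.6% (31.5 to 37.9) of the highest. Fold over the surroundings went the other way, at 8.57 (8.46 to 8.67) for peaks alone and 7.07 (6.75 to 7.52) in clusters of 3 or more. Neighbouring OCT2 peaks can add tags to those surroundings, so the measure is not separate from clustering. Median focus ratio was 0.75 in both. In the 726 pairs, the higher peak had a median of 1.43 times the height of the lower (25th to 75th percentile 1.18 to 1.86, highest 8.87), and 411 pairs (56.6%) differed by less than 1.5 times. The median distance within a pair was 4283 bp.

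The 3 clusters with the largest summed height were of different kinds. On chromosome 15, 3 peaks within 5587 bp (chr15:40417803-40423389) had heights of 50.2, 104.2 and 122.7, a sum of 277.1. The later 2 of them stood against scaled controls of 0.9 and 1.7 tags, with folds over input of 223.73 and 130.99. All 3 overlapped a Mi2 peak, none an OCAB peak, and the first had no other partner. On chromosome 8, 4 peaks over 30024 bp (chr8:130566810-130596833) had heights of 42.0, 110.7, 18.0 and 34.9, a sum of 205.6, and 3 of the 4 overlapped an OCAB peak. The second by sum, chr6:27774918-27798738 at 210.0, is one of those with the most peaks.

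Of the 5 clusters with 5 peaks and the largest sums, 3 lay on chromosome 6. In chr6:27774918-27798738 the heights were 31.1, 34.9, 37.1, 51.3 and 55.6, and the focus ratios ran from 0.609 to 0.702. In chr6:26021028-26055829 they were 14.2, 56.2, 32.2, 36.6 and 36.6, and in chr6:27099665-27115767 they were 39.8, 24.5, 19.6, 42.6 and 32.2. No OCAB peak lay on any of the 15 OCT2 peaks of these clusters. In chr14:23019053-23039485 a peak of 92.7 stood with peaks of 14.7, 26.7, 11.5 and 19.1, and the peak of 92.7 was the one with an OCAB peak, at a height of 29.1 in the OCAB list. In chr1:226841742-226885599 the heights were 18.0, 27.3, 34.9, 13.6 and 27.3, and 3 of the 5 had OCAB, all 5 MTA2, IKAROS and AIOLOS.

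By chromosome, OCT2 peaks were densest on chromosome 19, with 6.59 per Mb of the span they cover, then 22 with 6.11 and 17 with 5.37. They were sparsest on chromosome 4, with 1.85, and X, with 0.817. The 121 peaks on X were also low, with a median height of 10.9 against 12.5 to 16.4 on the other chromosomes, and only 11.6% were clustered. Their median scaled control was 1.7 tags, against 1.7 on chromosome 4 and 2.6 or 3.5 on the rest. Median fold over input was highest on X, at 16.2 against 9.08 to 11.1 on the other chromosomes. The part of the lower input on X in these values was not tested. In windows of 1 Mb, 2136 held a peak, with a median of 3 and a 95th percentile of 10. The fullest held 20 peaks, from 23 to 24 Mb on chromosome 22 and from 50 to 51 Mb on chromosome 19, followed by 19 peaks from 26 to 27 Mb on chromosome 6 and from 64 to 65 Mb on chromosome 11.

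A pair of 2 Mb stretches among the fullest windows were compared; they were chosen after their values had been seen, so the contrast is a description. One is the chromosome 6 stretch from 26 to 28 Mb, with 35 OCT2 peaks. The other runs from 22 to 24 Mb on chromosome 22, the part of the long arm known for the lambda light chain genes of antibodies, with 36 OCT2 peaks. On chromosome 6, 25 of the 35 peaks were in the highest decile and the median height was 36.6, with heights from 10.4 to 93.3. On chromosome 22, 5 of the 36 were in the highest decile and the median was 16.4, with heights from 8.18 to 184.9. The chromosome 6 peaks were broad: their median focus ratio was 0.644 (0.624 to 0.67), against 0.747 (0.708 to 0.795) on chromosome 22 and 0.816 (0.81 to 0.823) in the 804 other peaks of the highest decile. In clusters were 26 of 35 peaks on chromosome 6 and 20 of 36 on chromosome 22. Both stretches were picked for holding many peaks, which itself brings peaks close together, so this is not a separate trait.

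The partners of the 2 stretches also differed. OCAB was at 2 of the 35 chromosome 6 peaks (5.71%, 1.58 to 18.6) and 21 of the 36 chromosome 22 peaks (58.3%, 42.2 to 72.9). MTA2 was at 9 (25.7%) against 30 (83.3%), HDAC2 at 6 (17.1%) against 22 (61.1%), IKAROS at 17 (48.6%) against 35 (97.2%), and AIOLOS at 23 (65.7%) against 33 (91.7%). Mi2 was infrequent in both, at 4 and 3 peaks. Over the whole OCT2 list the shares were 22.5% for OCAB, 70.8% for MTA2, 54.1% for HDAC2, 76.5% for IKAROS, 69.7% for AIOLOS and 22.6% for Mi2. The stretch intervals included these shares for MTA2 and HDAC2 on chromosome 22, and for AIOLOS and Mi2 on chromosome 6. On chromosome 6, 8 peaks (22.9%) had none of the 6 partners, against 10.1% of the whole list, and on chromosome 22 none was without one. The 25 chromosome 6 peaks in the highest decile had OCAB in 8.0% (2.22 to 25) and MTA2 in 16.0% (6.4 to 34.7), where the 804 other peaks of that decile had 48.1% (44.7 to 51.6) and 87.3% (84.8 to 89.4).

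All 6 partners were more frequent at higher OCT2 peaks, and the OCAB share was largest in the highest decile. OCAB was present at 10.2% (8.31 to 12.4) of the lowest decile, 17.6% (14.7 to 20.9) of the fifth, 28.4% (25.4 to 31.7) of the eighth, 34.7% (31.5 to 38.0) of the ninth and 46.9% (43.5 to 50.3) of the highest, or 389 of 829 peaks. The highest decile exceeded the ninth by 12.2 percentage points (Newcombe 7.48 to 16.9) and the eighth by 18.5 (13.8 to 23.1). For the other 5 partners the intervals of both differences included 0. Between the eighth and the highest decile the difference was 2.07 points (-1.52 to 5.69) for MTA2, 1.65 (-2.93 to 6.2) for Mi2 and 2.12 (-2.32 to 6.56) for HDAC2. The values for IKAROS and AIOLOS were -2.56 (-6.02 to 0.915) and -0.789 (-4.65 to 3.1). Whether OCAB differs from the others in these differences was not tested, and the shares of MTA2, IKAROS and AIOLOS were already above 80% in the eighth decile. Leaving out the chromosome 6 stretch, the highest decile had OCAB at 48.1%, Mi2 at 33.3%, HDAC2 at 74.4%, IKAROS at 85.2% and AIOLOS at 80.8%. Its MTA2 share was then 87.3% (84.8 to 89.4), against 83.1% (80.3 to 85.6) in the eighth decile. Intervals of the differences without the stretch were not computed.

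MTA2 was at 46.4% of the lowest decile, 83.1% of the eighth and 85.2% of the highest, a difference from lowest to highest of 38.8 points (34.5 to 42.9). For HDAC2 the difference was 46.9 points (42.5 to 51.0), from 25.6% to 72.5%. Mi2 went from 11.5% to 32.4%, a difference of 20.9 points (17.0 to 24.7), IKAROS from 55.5% to 84.2%, 28.7 points (24.5 to 32.9), and AIOLOS from 44.9% to 80.3%, 35.4 points (31.0 to 39.7). For OCAB the difference was 36.7 points (32.7 to 40.6), a ratio of 4.60, against ratios from 1.52 to 2.83 for the others. A ratio depends on the starting share, which was 10.2% for OCAB and 55.5% for IKAROS, so these ratios are not comparable as strengths.

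**Figure D5:**
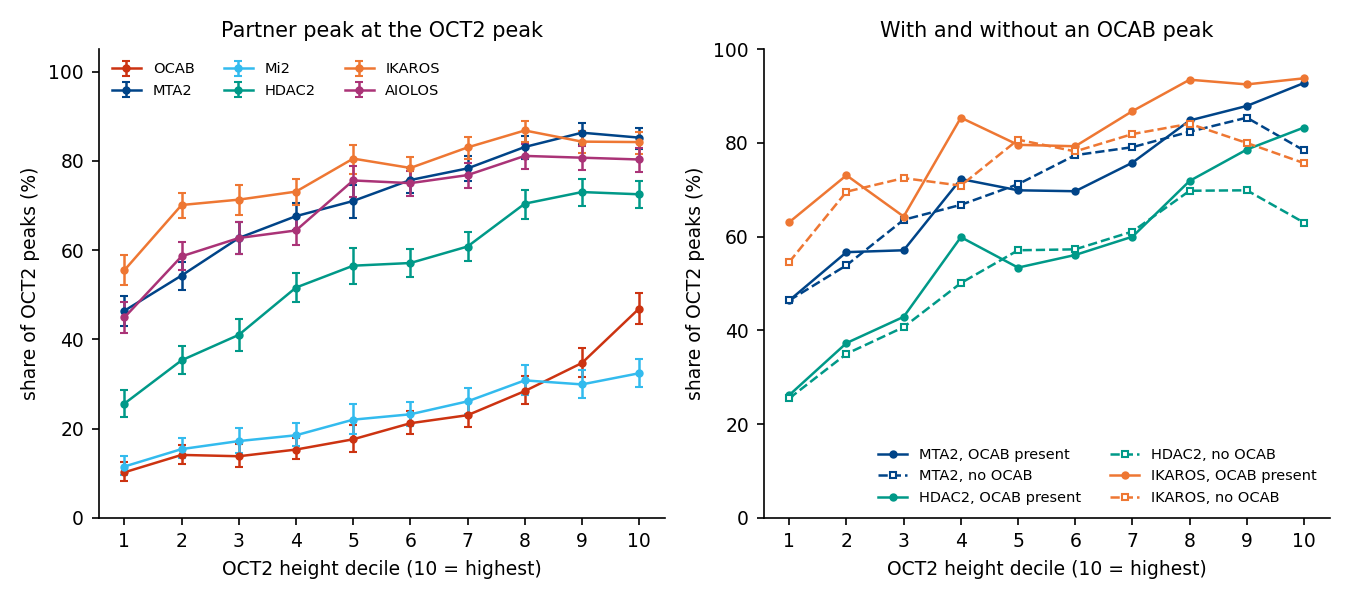
Share of OCT2 peaks with a partner peak (vertical axes, %) by decile of OCT2 height (horizontal axes, 10 the highest). Left, all 6 partners with Wilson 95% intervals, where the OCAB share is 46.9% in the highest decile and 28.4% in the eighth; right, shares for MTA2, HDAC2 and IKAROS with (solid) and without (dashed) an OCAB peak; in the highest decile the solid line is above the dashed one for all 3.

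Input tags differ between the deciles, so a similar comparison was made among the 4139 peaks with 2 to 4 input tags. This alternative was added after the data had been seen, and its deciles were cut anew within these peaks. Such peaks had at least 15 OCT2 tags, while the lowest decile of the whole list ran from 11 to 16 tags. The end deciles therefore hold other peaks, and whether a change came from input or from the height range was not tested. The difference was 37.3 points for OCAB, 43.3 for HDAC2 and 21.3 for Mi2, each inside the interval given above. It was lower than that interval for MTA2, at 34.3 (28.1 to 40.2), IKAROS, at 16.3 (10.3 to 22.2), and AIOLOS, at 22.5 (16.1 to 28.7). With only the 4000 highest peaks of each partner list, it was 60.9 for MTA2, 59.5 for HDAC2, 47.9 for IKAROS and 42.6 for AIOLOS. MTA2 then had the largest value, and each of these exceeded the 38.3 for OCAB, whose list of 4440 peaks this hardly shortens. For Mi2 it was 24.6. With centres at most 100 bp apart, it was 13.6 for Mi2.

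Partner heights were larger at higher OCT2 peaks too. From the lowest to the highest decile the median height of the partner peak, in its own list, was 13.1 and 44.7 for MTA2, 11.9 and 28.4 for HDAC2, 13.0 and 21.6 for Mi2, 24.4 and 103.1 for IKAROS and 21.8 and 79.1 for AIOLOS. For OCAB it was 14.8 (11.4 to 17.7) and 22.8 (21.7 to 25.1). Across shared peaks, rho between the 2 heights was 0.595 for MTA2 (5759 peaks), 0.588 for HDAC2 (4395), 0.5 for IKAROS (6218), 0.467 for AIOLOS (5667), 0.423 for Mi2 (1837) and 0.278 for OCAB (1831). OCAB thus had the lowest rho of the 6 and the largest ratio of shares between the end deciles. That ratio depends on the share in the lowest decile, which was smallest for OCAB. The points share their places in the genome and 1 OCT2 library, and differences between partners were not tested.

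In the highest OCT2 decile, peaks with OCAB also had the other partners more often. MTA2 was at 92.8% of the 389 peaks with OCAB and 78.4% of the 440 without, a difference of 14.4 points (9.71 to 19.0). The difference was 20.3 points (14.4 to 26) for HDAC2, 18.1 (13.4 to 22.8) for IKAROS, 18.6 (13.4 to 23.7) for AIOLOS and 10.1 (3.67 to 16.4) for Mi2. Without the chromosome 6 stretch the values were 11.5 (7.0 to 16.0) for MTA2, 18.0 (12.1 to 23.8) for HDAC2, 16.6 (11.9 to 21.3) for IKAROS, 18.0 (12.7 to 23.2) for AIOLOS and 8.97 (2.44 to 15.4) for Mi2. The sets with and without OCAB had close OCT2 heights, with medians of 39.8 (38.7 to 42.6) and 38.7 (38.2 to 40.4), and a median scaled control of 4.3 in each. Their median folds over the surroundings were further apart, at 17.68 (16.69 to 18.57) with OCAB and 15.63 (14.78 to 16.78) without.

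In the lower 9 deciles the interval of the same contrast for MTA2 included 0, except in the sixth. The difference was 0.0772 points (-10.8 to 11.2) in the lowest decile, where MTA2 was at 46.4% of peaks with OCAB and 46.4% of those without. It was -7.67 points (-15.0 to -0.916) in the sixth decile, 2.38 (-3.77 to 7.77) in the eighth and 2.46 (-2.68 to 7.1) in the ninth. The interval of the highest decile, 9.71 to 19.0, did not overlap that of the ninth, but without the chromosome 6 stretch it was 7.0 to 16.0 and did. The other partners had differences above 0 in lower deciles as well. For HDAC2 the difference was 0.65 points (-8.19 to 11.4) in the lowest decile, 9.79 (0.698 to 18.4) in the fourth and 8.7 (2.32 to 14.7) in the ninth. For IKAROS it was 14.5 (6.97 to 20.5) in the fourth, 9.48 (4.51 to 13.7) in the eighth and 12.6 (7.69 to 17.0) in the ninth. For AIOLOS it was 17.6 (6.33 to 28) in the lowest decile, 9.29 (0.584 to 16.9) in the fourth, 13.5 (7.83 to 18.4) in the eighth and 13.1 (7.75 to 18.1) in the ninth. For Mi2 it was 8.37 (0.991 to 18.3) in the lowest and 10.9 (3.5 to 19.3) in the fourth. In the remaining deciles below the highest, the intervals for these 4 partners included 0. Among OCT2 peaks without OCAB, the MTA2 share was 85.4% in the ninth decile and 78.4% in the highest, and the HDAC2 share 69.9% and 63.0%. Without the chromosome 6 stretch the shares in the highest decile were 81.8% for MTA2 and 65.7% for HDAC2.

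The number of partners followed height as well. The median OCT2 peak had 2 of the 6 partners in the lowest decile and 4 in the highest. None of the 6 was at 818 OCT2 peaks (10.1%, 9.43 to 10.7), which made up 27.4% (24.5 to 30.6) of the lowest decile and 4.10% (2.95 to 5.68) of the highest. Under the stricter match by centres within 100 bp, 18.6% of all peaks had none. All 6 were at 391 peaks (4.81%), from 7 peaks (0.85%) in the lowest decile to 125 (15.1%, 12.8 to 17.7) in the highest. The most frequent set was MTA2, HDAC2, IKAROS and AIOLOS together without OCAB or Mi2, at 1654 peaks (20.3%) with a median height of 15.3. With OCAB added to that set there were 611 peaks (7.52%) with a median of 21.8. OCAB as the only partner was at 131 peaks (1.61%), with a median height of 10.9, close to the 10.4 of peaks with no partner. With another protein as the only partner, the median height ran from 10.4 for IKAROS to 13.6 for AIOLOS, with Mi2 also at 10.9. A low height was thus not particular to OCAB among single partners.

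Among the highest peaks with no partner, chr3:18027151-18027425 had a height of 86.7 from 159 tags against 3 input tags. It was followed by chr13:30948698-30948972 at 67.1, chr15:91204609-91204883 at 62.7, chr6:26158957-26159231 at 62.2 and chr7:37828984-37829258 at 58.4. Of these, the last 4 were in pairs with another OCT2 peak 723 to 3568 bp away, and the chromosome 6 peak lies in the stretch above. The highest peaks with all 6 partners were chr8:130577931-130578205 at 110.7, chr4:51588-51862 at 91.7, chr20:62508131-62508405 at 91.1, chr7:73631827-73632101 at 90.0 and chr4:55554237-55554511 at 88.4. IKAROS peaks at these had heights of 830.1, 1135.9, 432.8, 556.8 and 161.7. The median IKAROS partner height was 103.1 in the highest OCT2 decile, and the IKAROS list's median was 20.5.

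The Mi2 share was low among the 20 highest OCT2 peaks but near that of the whole list among the 100 highest. These counts are limited to chromosomes 1 to 22 and X. Of the 20 highest, 1 had Mi2 (5.0%, 0.888 to 23.6), while 18 had MTA2, 18 IKAROS, 17 AIOLOS, 16 HDAC2 and 10 OCAB. Of the 100 highest, 25 had Mi2 (25%, 17.5 to 34.3), 88 MTA2 and 54 OCAB. These shares of Mi2 can be read against 32.4% of the highest decile and 22.6% of the whole list. The interval for the 20 highest lies below the former and reaches the latter; the cut at 20 was chosen after values were seen.

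On chromosomes 1 to 22 and X, the 5 peaks with the most input tags had folds over input from 4.09 to 8.37, a measure that this choice keeps low because input tags are its denominator. Their folds over the surroundings were 34.8, 46.9, 6.93, 33.8 and 8.49 in the order given here, 3 of them above the 95th percentile of the list, 19.9. At chr11:62609087-62609361 the input had 75 tags and OCT2 328, a fold over input of 5.07 at a height of 178.9. The partner peaks there had heights of 2160.7 for IKAROS and 2170.7 for AIOLOS, the highest of these at any OCT2 peak named here, 549.1 for MTA2, 111.1 for OCAB and 98.9 for HDAC2. The next 4, chr3:73159966-73160240, chr17:21252082-21252356, chr1:165362274-165362548 and chr3:49062903-49063177, had 20, 19, 18 and 17 input tags and folds over input of 5.91, 4.09, 8.37 and 5.05.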

How the data were processed

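Per the labels' protocols, nuclei of 697 cells were sonicated, DNA was isolated with an antibody, amplified over 15 PCR cycles and sequenced on an Illumina HiSeq 2500. Reads were handled with HOMER 4.9.1, Bowtie2 2.3.2.2 and CASAVA, version 1.8.2 except for HDAC2 with 1.4, on hg19, per the submitters' processing notes. Each list belongs to 1 library. For the OCT2 list, findPeaks parameters are not given in the sources at hand. Per the file headers, the HDAC2 list used at least 4-fold over input and a p-value limit of 1.00e-04, so the lists differ in strictness.

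The authors deposited, per peak, the count of tags, a signal (tags per 10 M, here called height), scaled control signal, the focus ratio as a fraction, the findPeaks score, ratios (fold over input, fold over the surroundings and a clonal fold that no source at hand defines) and HOMER's p-values. They were used only within their own list.

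From these, the OCT2 depth (18.33 M tags) and the value of 1 input tag were recovered. Deciles of height, clusters, shares, overlaps of at least 1 bp and intervals (Wilson for shares, Newcombe for differences, exact binomial for medians, exact Poisson for tags) were computed with Python 3.11.15, numpy 2.4.6, pandas 2.3.3, scipy 1.17.1 and matplotlib 3.10.9. The overlap, cluster and interval code was tested on simulated peaks. No p-value was computed, since peaks and deciles are not replicates. Regions were named by a rule: the 10 highest peaks, 5 clusters with the most peaks, 3 with the largest sums, 5 peaks each with the most control tags, no partner and all partners, 3 each with the lowest and highest focus ratio in the highest decile, and the 3 lowest. The members, deciles and partner lists were chosen with earlier results of these data known. Gene tables on GRCh38 served only for the promoters shown; peaks were given no gene, and the octamer was not searched in them.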

Additional observations from a re-analysis of the deposited data

How the results depend on the processing

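Of 57 alternative values, 30 stayed within the counting interval of the value reported, or within 1.5 times for counts of clusters, 27 moved outside these limits and 0 changed sign. The difference in OCAB share between the highest and lowest decile moved under none of its 6 alternatives, of which the limit of 4000 peaks removes few of the 4440 OCAB peaks. With the 4000 highest peaks of each partner list the difference was 60.91 points for MTA2, 59.46 for HDAC2, 47.88 for IKAROS and 42.57 for AIOLOS. With centres at most 100 bp apart it was 13.6 for Mi2, 40.32 for HDAC2 and 29.6 for AIOLOS, and 18.64% of peaks had no partner. Within 2 to 4 input tags, with deciles cut anew, it was 34.32 for MTA2, 16.32 for IKAROS and 22.49 for AIOLOS. Clusters of 3 or more numbered 17 at 5000 bp, 256 at 25000 bp and 43 among the 5442 peaks at least 8-fold over input, and 11.69%, 34.57% and 16.72% of peaks were clustered. Those 5442 peaks had a median height of 13.6, focus ratio of 0.76 and fold of 13.91; 29.46% had at most 1 control tag, 11.78% had no partner, and focus ratio differed by 0.101 between the end deciles. The 7289 peaks with p over input of at most 1e-10 had medians of 15.3, 0.754 and 10.67, and 21.28% had at most 1 control tag. Apart from changes that the smaller or longer lists make by construction, the cause was not tested. No paired analysis was possible because each antibody had 1 library. A median peak of 26 tags and 3 input tags limits the precision of single heights and of every fold over input.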

Other observations

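The highest values of the OCT2 list lay outside chromosomes 1 to 22 and X. On the unplaced contig Un_gl000220, which is known to carry ribosomal DNA repeats, a peak from 136262 to 136536 had 2223 OCT2 tags and a height of 1212.2 against 439 input tags, a fold over input of 5.87, a focus ratio of 0.639 and the lowest clonal fold of the list, 0.53. A second peak there, from 119359 to 119633, had a height of 593.0 against 201 input tags and a fold of 6.28. The first overlapped an AIOLOS peak of height 967.4 and no other partner, and the second an MTA2 peak of height 1106.5 and no other.

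At the other end of the clonal fold, the peak at chr3:73159966-73160240 had the highest value of the list, 1.76, with 102 OCT2 tags, 20 input tags and none of the 6 partners. Single partners were seldom the whole company of an OCT2 peak. IKAROS alone was at 224 peaks (2.76%), MTA2 alone at 195 (2.40%), HDAC2 alone at 127 (1.56%), AIOLOS alone at 60 (0.738%) and Mi2 alone at 57 (0.701%).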
